A study of Rattus norvegicus with 6 samples.

Results

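The mTORC1 and AMPK switch of pancreatic islet cells was examined through the accessible chromatin sites (ACS) of 10 genes. These were *Mtor*, *Rptor*, *Rictor*, *Prkaa1*, *Prkaa2*, *Stk11*, *Tsc1*, *Tsc2*, *Rps6kb1* and *Sesn1*, and every ACS that the deposited annotation assigns to them as nearest gene was taken. The rule gave 32 ACS of 101603 in all, from 7 of the 10 genes. No ACS carried the name of *Rictor*, *Tsc1* or *Tsc2*. ATAC-seq measures open chromatin through the insertions (integrations) that the Tn5 transposase makes in accessible DNA. The Adult group held 3 libraries, numbered 4, 5 and 6, each from 1 male Sprague-Dawley rat of around P90. The P10 group held 3 libraries, numbered 1, 2 and 3, from mixed Sprague-Dawley pups of 3 litters, at 10 days after birth. The study kept male and female pups, but does not give the sexes in each library. It also does not state outright that each library came from 1 litter. No treatment or engineered allele was part of either group. Cells were dissociated from whole islets and were not sorted, so each library mixes cell types. Pup pancreases were pooled and digested by hand shaking, while in adults collagenase was injected into the duct before a longer digestion. Age, sex, the way islets were isolated and the use of 1 rat or of pooled pups cannot be told apart.

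The mTOR kinase works in separate complexes. In mTORC1 it is held by Raptor and, at the lysosome, senses amino acids and growth factors and drives protein synthesis through S6 kinase. In mTORC2 it is held by Rictor. AMPK, which LKB1 switches on when cellular energy is low, restrains mTORC1 by acting on TSC2 and Raptor, and the TSC1 and TSC2 proteins turn off Rheb, the small GTPase that activates mTORC1. Sestrins report leucine shortage to the same lysosomal machinery. In beta cells this pathway is known for controlling growth before weaning and for its changed response to nutrients as insulin secretion becomes glucose dependent. The comparison asked which of these genes had chromatin that differed between neonatal and adult islets, at their starts and away from them.

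Promoter sequence was available for 9 of the 10 genes, as RefSeq windows of 250 bases before to 50 bases after the start in GRCr8. *Rptor* was not matched. The upstream stretches of 3 genes are shown. *Mtor* held the most ACS called Up, and *Prkaa1* and *Prkaa2* encode the alternative catalytic subunits of AMPK. Of these subunit genes, the start ACS of *Prkaa1* was called and that of *Prkaa2* was not, but a difference between the genes was not tested. Capitals mark matches on either strand to GGGCGG (the GC box bound by SP-family factors) or CCAAT, and matches may overlap.
*Mtor*, chr5:164167735-164167984, plus strand: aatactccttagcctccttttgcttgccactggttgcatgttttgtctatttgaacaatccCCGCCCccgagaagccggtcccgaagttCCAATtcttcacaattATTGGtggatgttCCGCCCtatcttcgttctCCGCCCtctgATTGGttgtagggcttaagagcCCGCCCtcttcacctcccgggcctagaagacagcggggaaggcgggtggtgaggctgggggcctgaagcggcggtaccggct
*Prkaa1*, chr2:55967525-55967774, plus strand: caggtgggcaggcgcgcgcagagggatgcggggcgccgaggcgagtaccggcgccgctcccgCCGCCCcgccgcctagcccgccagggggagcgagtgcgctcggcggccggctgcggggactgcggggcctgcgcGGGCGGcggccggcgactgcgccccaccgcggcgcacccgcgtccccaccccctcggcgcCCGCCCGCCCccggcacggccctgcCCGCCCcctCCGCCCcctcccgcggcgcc
*Prkaa2*, chr5:125108325-125108574, minus strand: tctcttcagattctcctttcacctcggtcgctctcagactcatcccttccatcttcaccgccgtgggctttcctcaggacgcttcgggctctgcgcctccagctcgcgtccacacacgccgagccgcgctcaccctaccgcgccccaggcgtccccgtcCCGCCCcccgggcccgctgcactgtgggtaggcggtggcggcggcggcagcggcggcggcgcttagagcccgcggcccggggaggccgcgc
The *Mtor* stretch held 4 GC boxes and 3 CCAAT motifs, the *Prkaa1* stretch 6 GC boxes and no CCAAT, and the *Prkaa2* stretch 1 GC box and no CCAAT. Over the whole windows the GC content was 60% for *Mtor*, 81.3% for *Prkaa1* and 70.7% for *Prkaa2*, against a median of 51.7% over 33469 promoters. The window of *Prkaa1* held 49 CpG dinucleotides and that of *Prkaa2* held 39, against a median of 7. GGGCGG was found in 7 of the 9 matched windows, against 33.1% of all promoters, and CCAAT in 3, those of *Mtor*, *Stk11* and *Sesn1*, against 37.5%. CCGGAAG, the core of ETS factors, was found only in that of *Tsc2* among the 9, against 8.75% of all. No window of the 9 matched CACGTG, the E-box of lysosomal gene regulators, found in 6.42% of all promoters. The same held for TGACGTCA (1.83%), TGACTCA (4.63%) and the NRF1 motif (0.852%). The ACS below are in Rn5 coordinates and the windows are in GRCr8, so the ACS were not placed on these letters.

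The 7 genes with ACS had between 1 and 7 each: *Mtor* 5, *Rptor* 6, *Prkaa1* 4, *Prkaa2* 7, *Stk11* 1, *Rps6kb1* 6 and *Sesn1* 3. By the annotation 7 ACS were of the TSS class, 3 proximal and 22 distal, which is 21.9%, 9.38% and 68.8% against 10.9%, 9.85% and 79.3% of all ACS. Inside a gene body lay 17 of the 32, or 53.1%, against 22.1% of all ACS. A further 6 overlapped a gene start, 2 lay upstream and 7 beyond a gene end. Their widths ran from 213 to 1274 bp with a median of 370 bp, against 373 bp over all ACS. The mean count per library ran from 9.17 to 716 integrations with a median of 60.2, against 64.8 for all ACS.

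The Adult libraries held 7916919 to 11903909 integrations in ACS and the P10 libraries 13491534 to 21168463. Levels below are counts per 1000000 of these integrations (CPM) after TMM scaling, with factors from 0.93 to 1.04. Differences are log2 fold changes of Adult over P10 with their standard errors, from edgeR's quasi-likelihood test over all ACS, and adjusted p-values are by Benjamini-Hochberg. An ACS was called Up (more accessible in adults) or Down (more accessible at P10) at p under 0.05 and an adjusted p under 0.2, the limits of the study. On simulated counts with 200 of 101603 ACS changed by 1 on the log2 scale, the same test recovered 34%. In the data 12504 ACS were called Up and 6738 Down, so an adjusted p under 0.2 was easier to reach. The 34% is therefore not the recovery in these data, and an ACS that was not called is not shown to be unchanged. Beta-cell markers, summed over their start and proximal ACS, ran from 246 to 338 CPM in adults and from 276 to 473 CPM at P10, with ACS for 6 of 7 genes and none for *Mafa*. Alpha-cell markers (5 of 5 genes) held 147 to 165 against 143 to 166 CPM, and pan-endocrine markers (3 of 5, none for *Chga* and *Insm1*) 185 to 248 against 189.5 to 258 CPM. Delta-cell (2 of 2 genes), duct (3 genes) and mesenchymal (6 of 6) markers were lower in every adult library, at 25.5 to 28.4 against 32.5 to 43.7, 24.2 to 27.2 against 32 to 37.2, and 40.2 to 45.5 against 47.8 to 56.1 CPM. Acinar (5 of 9), endothelial (3 of 6), leukocyte (2 of 6) and cycling (4 of 5) markers overlapped between the ages, at 37.9 to 54.3 against 51.1 to 64, 52.7 to 59.2 against 52.9 to 55.6, 11.6 to 15.1 against 11.3 to 14.5, and 98.5 to 107 against 91.5 to 115 CPM. *Ptprc*, *Pecam1*, *Prss1* and *Mki67* had none of these ACS. The part of these cells in the results below was not tested, and fewer cells of a type and lower accessibility per cell cannot be told apart.

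Of the 32 ACS, 5 were called Up and 5 Down, or 15.6% each, where 12.3% of all ACS were called Up and 6.63% Down. The study reported the opposite balance at the same limits, with more ACS Down than Up. The study described its Up ACS as enriched in distal sites and introns, and its Down ACS in promoters. In the present test, 2.22% of all 8659 start ACS were called Up and 7.88% Down. Of all ACS away from starts, 13.2% were called Up and 6.52% Down. Why the balances differ was not tested. Among the 32, the Up calls lay in *Mtor* (3), *Prkaa2* (1) and *Sesn1* (1), and the Down calls lay at *Rps6kb1* (3), *Rptor* (1) and *Prkaa1* (1). No gene had calls in both directions. With column sums as library sizes, which turned the split over all ACS from 12504 Up and 6738 Down to 10447 Up and 10732 Down, 3 of the 32 were called Up and 7 Down. Libraries of the ages did not overlap at 10 ACS, or 31.2%, against 24.7% of all ACS. Of these 10, 3 were called Up, 5 Down and 2 were not called. The median log2 fold change of the 32 was -0.19, against -0.01 over all ACS, with 11 above and 21 below 0 and a range from -1.40 to 1.02. Of all 101603 ACS 51509 were below 0. The 22 ACS that were not called ran from -0.68 to 0.33, and the standard errors of the 32 from 0.17 to 0.56. With the total read numbers of the study as library sizes, the median over all ACS moved to -0.84 and that of the 32 to -1.04. Then 0 of the 32 were called Up and 23 Down, and the source of the shift was not tested. With the median over all ACS subtracted, the 5 Up ACS were at 0.55 to 0.99 and the 5 Down ACS at -1.38 to -0.51. That subtraction centres the fold changes again, much as TMM does, so these values are no separate evidence for the calls.

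**Figure D1:**
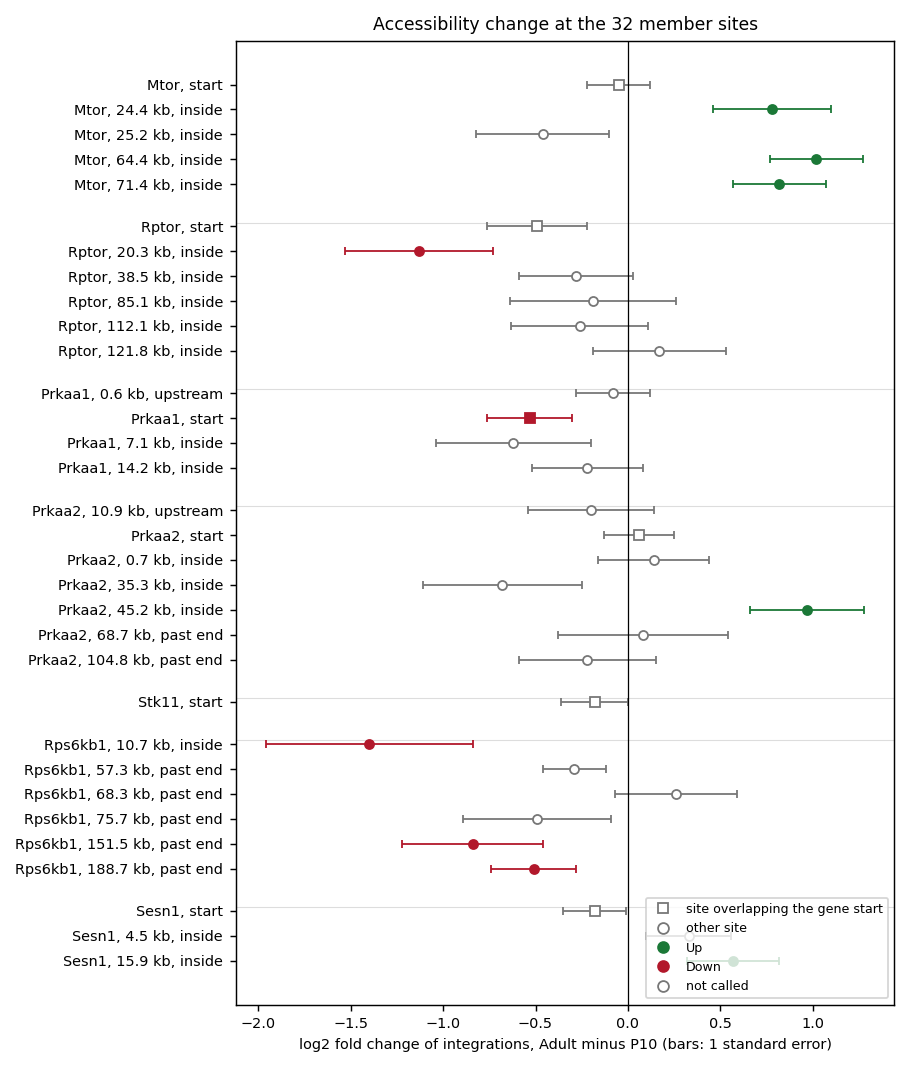
Log2 fold change of Adult over P10 (horizontal axis) for each of the 32 ACS by gene and distance from the gene start, with bars of 1 standard error, squares for ACS at gene starts, green for Up, red for Down and open grey for not called. The 3 *Mtor* ACS called Up stand between 0.78 and 1.02, while the start ACS of *Mtor* lies at -0.05.

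*Mtor*, the kinase of both complexes (chromosome 5, 168920419 to 169030568, plus strand), had 3 of its 4 ACS inside the gene called Up, while its start ACS was not called. Of all ACS away from starts 13.2% were called Up. Start and inside ACS were compared only by the ratio given below, at an exact permutation p of 0.1 and 0.25 after adjustment. The start ACS (168920005 to 168920593) held 43.6, 34.5 and 31.1 CPM in Adult 4, 5 and 6, and 38.7, 40.9 and 33.4 CPM in P10 1, 2 and 3. The ages overlapped, with a log2 fold change of -0.05 ± 0.17 (SE) and an adjusted p of 0.924, and the sign turned to 0.05 without Adult 6. At the ACS 64.4 kb into the gene (168984776 to 168985221) the adult libraries held 15.5, 13.5 and 12 CPM against 9.16, 5.49 and 5.45 CPM at P10. All adult values exceeded all P10 values there, at 13.7 ± 1.74 against 6.7 ± 2.13 CPM (SD, n = 3 each). This ACS rose by 1.02 ± 0.25 on the log2 scale (adjusted p = 0.00748), a 2.03-fold difference. It was the only 1 of the 10 calls that held in all 6 fits that left out 1 library, with adjusted p from 0.00125 to 0.0703.

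A second ACS 71.4 kb into *Mtor* (168991812 to 168992318) was the most accessible ACS inside the gene, with 29.8, 19.7 and 15 CPM in adults and 17.2, 9.99 and 9.3 CPM at P10. Adult 6 lay below P10 1, so the ages overlapped, and the log2 fold change was 0.82 ± 0.25 (adjusted p = 0.0359). The call was lost without Adult 4 and without P10 3, with adjusted p of 0.295 and 0.222. At the ACS 24.4 kb in (168944824 to 168945174), the values were 7.05, 6.23 and 2.96 CPM in adults and 4.14, 2.35 and 3.01 CPM at P10. Adult 6 was lower than P10 1 and P10 3 here. Its log2 fold change of 0.78 ± 0.32 (adjusted p = 0.15) lost its call without Adult 4, Adult 5, P10 2 or P10 3, at adjusted p of 0.451, 0.307, 0.467 and 0.337. It was also not called with column sums as library sizes (adjusted p = 0.214) or with the minimum of 50 mean counts, where its adjusted p was 0.185 but its unadjusted p missed the limit. The remaining ACS at 25.2 kb had a log2 fold change of -0.46, and its ages overlapped (adjusted p = 0.524).

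*Rptor* encodes Raptor, the scaffold that brings substrates to mTORC1 (chromosome 10, 108353697 to 108658916, plus strand). The fitted change was below 0 at 5 of its 6 ACS, against 51509 of all 101603 ACS, and 1 was called Down. The start ACS (108353648 to 108354218) was weak, with 5.96, 3.99 and 4.51 CPM in adults and 7.3, 6.35 and 6.71 CPM at P10. All adult values lay below all P10 values, but the log2 fold change of -0.49 ± 0.27 did not pass the test (adjusted p = 0.31). With column sums as library sizes, or with ACS under a mean of 50 counts left out, it did pass, at adjusted p of 0.176 and 0.143. The called ACS lay 20.3 kb into the gene (108373980 to 108374390), where adults held 0.813, 1.66 and 1.16 CPM and P10 libraries 3.3, 2.35 and 2.27 CPM. The ages did not overlap, and the ACS fell by 1.13 on the log2 scale, with a standard error of 0.40 (adjusted p = 0.0749), although it averaged only 30.3 counts. Without Adult 4 or P10 1 the adjusted p was 0.256 or 0.228. The other 4 *Rptor* ACS, from 38.5 to 122 kb, ran from -0.28 to 0.17, and the ages overlapped at each. A further 6 ACS inside the span of *Rptor* carried the name of its neighbour *Chmp6*, and 0 of these were called (0 also at an unadjusted p under 0.05 and by DESeq2 or limma's voom).

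*Rps6kb1*, which encodes S6 kinase, the best known mTORC1 substrate, lies on chromosome 10 from 76234215 to 76275379, on the plus strand of the deposited Rn5 annotation. RefSeq places it on the minus strand of GRCr8, and the positions given here relative to the gene follow the deposited annotation. The fitted change was below 0 at 5 of its 6 ACS, against 51509 of all 101603 ACS, and 3 were called Down. No ACS at its start carried its name, but an ACS assigned to the neighbouring *Tubd1* (76233640 to 76234692) overlaps it. There the adults held 21.6, 18.2 and 15 CPM and P10 libraries 23.8, 20.8 and 16.3 CPM. The ages overlapped, with a log2 fold change of -0.15 ± 0.20 (adjusted p = 0.758). The strongest ACS under the name of *Rps6kb1*, 57.3 kb from the start and past the gene end (76291527 to 76292550), held 37.9, 39.5 and 29.9 CPM in adults and 46.5, 46.1 and 38.9 CPM at P10. Adult 5 lay just above P10 3, and the log2 fold change of -0.29 ± 0.17 did not pass the test (adjusted p = 0.34). It did pass with column sums as library sizes and with the minimum of 50 mean counts, at adjusted p of 0.135 and 0.105.

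The called ACS farthest from *Rps6kb1*, 189 kb from its start (76422919 to 76423780), was also the most accessible of the 3. Adults held 10.8, 7.99 and 7.73 CPM and P10 libraries 12.6, 13.7 and 11.7 CPM, with no overlap. It fell by 0.51 on the log2 scale with a standard error of 0.23 (adjusted p = 0.181), and the call was lost without Adult 5, Adult 6, P10 2 or P10 3, at adjusted p of 0.314, 0.392, 0.414 and 0.228. The ACS at 152 kb (76385751 to 76386053) held 1.08, 1.85 and 1.42 CPM in adults and 2.7, 3 and 2.11 CPM at P10. The ages again did not overlap, with a log2 fold change of -0.84 ± 0.38 (adjusted p = 0.194). Without Adult 4, Adult 6, P10 1, P10 2 or P10 3 its adjusted p was 0.426, 0.311, 0.29, 0.453 and 0.225, and neither DESeq2 (0.234) nor limma's voom (0.221) called it. The only called ACS inside the gene, at 10.7 kb (76244884 to 76245118), rested on 2, 4 and 3 integrations in adults and 20, 9 and 17 at P10. Its pooled P10 level was 2.73 times that of adults, with a 95% exact counting interval from 1.32 to 6.35 that covers counting error only, and the fitted log2 fold change was -1.40 ± 0.56 (adjusted p = 0.131). That call ended without Adult 4, P10 1 or P10 3, at adjusted p of 0.337, 0.236 and 0.274, and the ACS was removed by the expression filter of edgeR. Both remaining ACS, at 68.3 and 75.7 kb, were not called, at 0.26 and -0.49. At the latter all adult values lay below all P10 values.

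**Figure D2:**
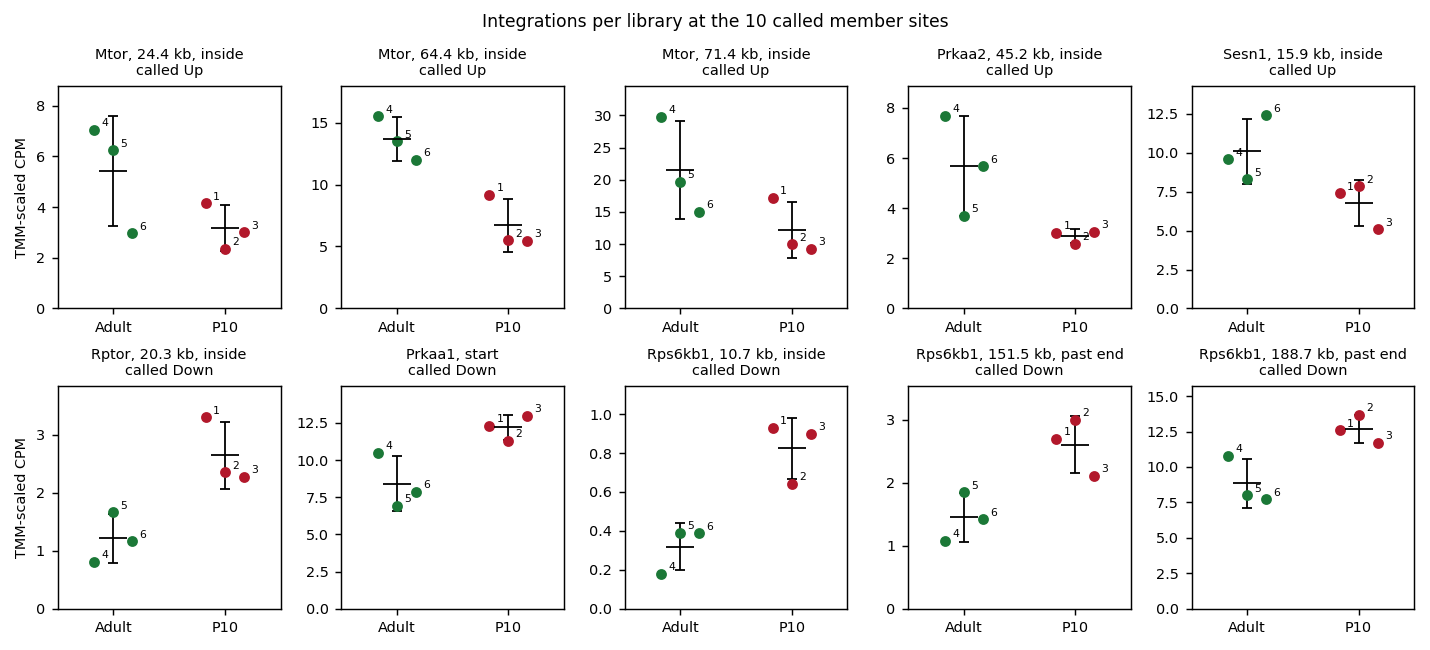
TMM-scaled CPM (vertical axis, from 0) in each library at the 10 called ACS, with library numbers beside the points and horizontal and vertical bars for the mean and SD of 3 libraries. The ages are separate at 8 of the 10, and overlap at the *Mtor* ACS 24.4 and 71.4 kb into the gene. These ACS were called on the same libraries, so the separation is no further evidence. Over all ACS the ages are separate at 24.7%. Only 1 of the 10 calls held in every fit that left out 1 library.

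*Stk11* encodes LKB1, the kinase that activates AMPK (chromosome 7, 12610856 to 12627616, minus strand). Its only ACS, at the start (12627548 to 12628094), was the most accessible of the 32 per length, with 85 CPM per kb in adults and 96.3 CPM per kb at P10. The adult libraries held 55.6, 47.2 and 36.7 CPM and the P10 libraries 64.8, 51.3 and 42 CPM. The ages overlapped, with a log2 fold change of -0.18 ± 0.18 (adjusted p = 0.642).

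The catalytic subunits of AMPK differed in where their calls lay. *Prkaa1* (alpha1, chromosome 2, 73882080 to 73917812, plus strand) had the only start ACS of the 6 that was called. That ACS (73882041 to 73882712) held 10.5, 6.91 and 7.86 CPM in adults and 12.3, 11.3 and 13 CPM at P10. No adult library reached the P10 range. It fell by 0.53 on the log2 scale with a standard error of 0.23 (adjusted p = 0.176). The call did not hold without Adult 5, Adult 6, P10 2 or P10 3, at adjusted p of 0.367, 0.336, 0.261 and 0.342. Just upstream, an ACS with its edge 640 bp before the start (73881440 to 73881849) was more accessible and held 15.7, 15.1 and 20.2 CPM in adults and 19.2, 18.3 and 16.3 CPM at P10. Those ages overlapped, with a log2 fold change of -0.08 ± 0.20 (adjusted p = 0.882). At the ACS 14.2 kb into the gene the adults held 3.34, 5.45 and 3.22 CPM and P10 libraries 4.04, 5.21 and 4.86 CPM, with a log2 fold change of -0.22 ± 0.30 (adjusted p = 0.753). The fourth ACS, at 7.14 kb, was at -0.62 and was not called (adjusted p = 0.432).

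*Prkaa2* (alpha2, chromosome 5, 128436023 to 128503874, minus strand) was called Up at 1 of 7 ACS, away from its start. The start ACS (128503530 to 128504198) held 21.9, 18.4 and 19.7 CPM in adults and 19, 17.3 and 21.4 CPM at P10. Its log2 fold change of 0.06 ± 0.19 (adjusted p = 0.915) fell to -0.04 with column sums as library sizes or the minimum of 50 mean counts, to -0.01 without Adult 4 and to -0.03 without P10 2. The ACS just inside the gene, 722 bp from the start, held 4.16, 4.48 and 4.64 CPM in adults and 4.88, 3 and 4.07 CPM at P10, and the ages overlapped (0.14 ± 0.30, adjusted p = 0.854, and -0.04 without P10 2). At 45.2 kb into the gene (128458626 to 128458844) the adults held 7.68, 3.7 and 5.67 CPM against 3.02, 2.57 and 3.07 CPM at P10. The adult values all lay above the P10 values, and the ACS rose by 0.97 ± 0.31 on the log2 scale (adjusted p = 0.0454). Without Adult 4, the highest library, the log2 fold change was 0.68 and the adjusted p 0.292. The other 4 ACS, at 10.9 kb upstream and at 35.3, 68.7 and 105 kb, averaged under 50 counts, ran from -0.68 to 0.08, and were not called.

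*Sesn1* encodes sestrin 1, a stress-induced brake on mTORC1 (chromosome 20, 48347551 to 48437686, plus strand). The start ACS (48346424 to 48347697), classed as proximal because its lower edge lies 1127 bp from the start, held 38.3, 26.8 and 37.4 CPM in adults and 36.5, 43.3 and 36.4 CPM at P10. The ages overlapped (-0.18 ± 0.17, adjusted p = 0.621). Inside the gene both ACS had higher means in adults. At 4.48 kb the values were 13.5, 12.2 and 12.8 CPM against 13, 9.27 and 8.14 CPM, which overlapped (0.33 ± 0.23, adjusted p = 0.444), although without P10 1 the ACS was called, at 0.55 and an adjusted p of 0.157. At 15.9 kb (48363472 to 48363850) the adults held 9.58, 8.28 and 12.4 CPM and P10 libraries 7.39, 7.85 and 5.07 CPM. There the ages did not overlap, and the ACS rose by 0.57 ± 0.25 on the log2 scale (adjusted p = 0.182). The call ended without Adult 4, Adult 6, P10 2 or P10 3, at adjusted p of 0.242, 0.495, 0.251 and 0.52, with column sums as library sizes at 0.26, and with the minimum of 50 mean counts at 0.217. Another 6 ACS inside the span of *Sesn1* were assigned to a gene without a symbol, and 0 were called by any of these tools.

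**Figure D3:**
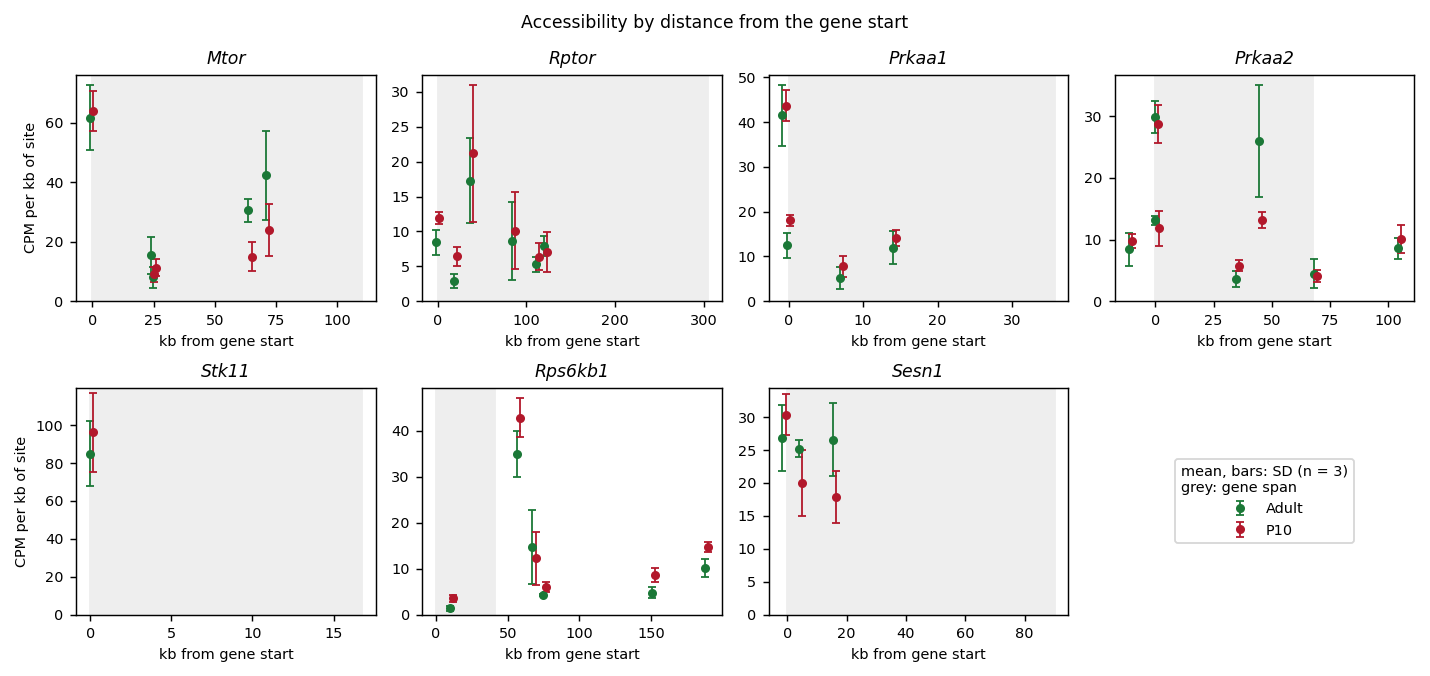
Mean CPM per kb of ACS (vertical axis, separate scale for each gene) against distance from the gene start in kb, for Adult (green) and P10 (red), drawn slightly apart for legibility, with SD of 3 libraries as bars and the gene span in grey. In *Mtor* the adult means exceed the P10 means at 64.4 and 71.4 kb, while at the start they are 61.8 and 64 CPM per kb.

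The starts of the genes and the rest of their ACS can be set side by side. Of the 6 start ACS 0 were called Up and 1 Down (edgeR, DESeq2 and limma's voom alike, with 0 Up also at an unadjusted p under 0.05), with a median log2 fold change of -0.18 and 5 of 6 below 0. Over all 8659 start ACS 2.22% were called Up and 7.88% Down, with a median of -0.10. The adult mean was below that of P10 at 5684 of the 8659. Of the 26 other ACS of the pathway genes, 5 were called Up and 4 Down, or 19.2% and 15.4%, against 13.2% and 6.52% of all ACS away from starts. No test over the list was run.

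The ratio of the integrations at all other ACS of a gene to those at its start ACS does not depend on library scaling, and was computed for the 5 genes with both kinds after their values had been seen. For *Mtor* this ratio was 1.28, 1.21 and 1.01 in Adult 4, 5 and 6, and 0.885, 0.533 and 0.604 in P10 1, 2 and 3. The lowest adult ratio was above the highest P10 ratio, with a difference of 0.82 on the log2 scale. *Sesn1* showed the same order, with ratios of 0.601, 0.764 and 0.672 in adults and 0.557, 0.395 and 0.363 at P10, and a difference of 0.65. For each of these 2 genes the two-sided exact permutation p was 0.1, the smallest that 3 against 3 libraries allow, and 0.25 after adjustment over the 5 ratios. Their other ACS include those called Up on the same libraries, 3 at *Mtor* and 1 at *Sesn1*, so the separation is no further evidence. The ratio was not computed over all genes. Over all ACS the median log2 fold change was -0.10 at starts and 0.01 away from them. The ratios of *Prkaa1*, *Rptor* and *Prkaa2* overlapped between the ages, with differences of 0.41, 0.24 and 0.12 (exact permutation p = 0.3, 0.6 and 0.5).

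**Figure D4:**
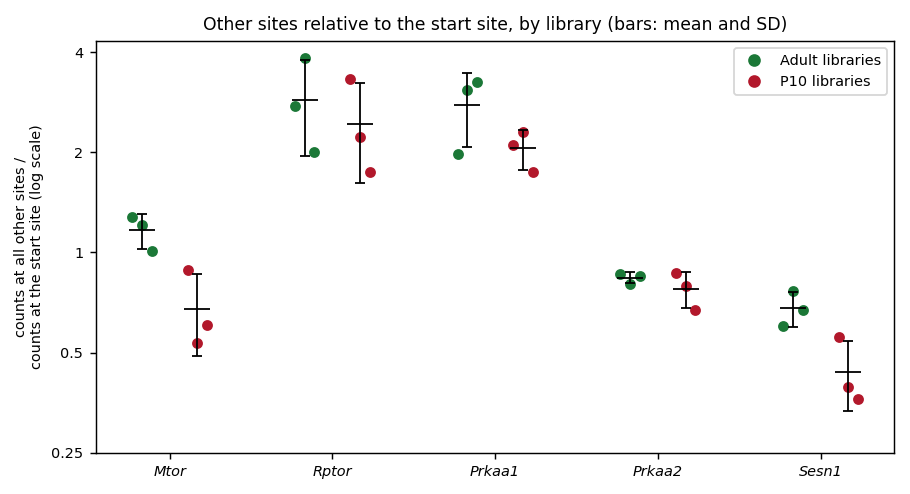
Ratio of the counts at all other ACS of a gene to the counts at its start ACS (vertical axis, log scale) in each Adult (green) and P10 (red) library, with mean and SD of 3 libraries. The ages are separate for *Mtor*, with adults at 1.01 to 1.28 and P10 at 0.533 to 0.885, and for *Sesn1*, and overlap for the other 3 genes.

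Some libraries stood at the edge of their group over several of the called ACS. Summed over the 5 Up ACS, Adult 4 held 69.6 CPM against 51.4 and 48 CPM in Adult 5 and 6, and P10 1 held 41 CPM against 28.2 and 25.9 CPM in P10 2 and 3. Adult 4 and P10 1 also had the highest beta-cell marker sums of their groups, at 338 and 473 CPM, and the highest pan-endocrine sums, at 248 and 258 CPM. The part of this in the calls was not tested. Over the 5 Down ACS the sums were 23.3, 18.8 and 18.6 CPM in adults and 31.8, 31 and 30 CPM at P10. The ages were separate in both sums, but these ACS had been called on the same libraries, so that separation is no further evidence. Without Adult 4, 1 Up and 2 Down calls were left, and without P10 3, 2 Up and 1 Down.

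When the integrations of all ACS of a gene were summed and tested over 14776 genes, *Mtor* was called Up and *Rps6kb1* Down, where 10.5% of all genes were called Up and 7.63% Down. The *Mtor* sum was 93, 77.2 and 64.7 CPM in adults and 70, 62.9 and 55.4 CPM at P10. The ages overlapped, with a log2 fold change of 0.32 ± 0.13 (adjusted p = 0.171), and the call was lost without Adult 4, Adult 5, P10 2 or P10 3, at adjusted p of 0.558, 0.224, 0.379 and 0.361, and at 0.34 with column sums as library sizes. The *Rps6kb1* sum was 58.5, 56.6 and 47.2 CPM in adults and 70.4, 69.8 and 61.8 CPM at P10, with no overlap. It fell by 0.31 on the log2 scale with a standard error of 0.12 (adjusted p = 0.141), and the call was lost without Adult 6 or P10 2, at adjusted p of 0.388 and 0.406. Most of this sum came from the uncalled ACS at 57.3 kb, with means of 35.8 CPM in adults and 43.8 CPM at P10. All *Rps6kb1* ACS but that at 10.7 kb lie past the gene end. No ACS carried the name of *Rnft1*, a neighbour in the GRCr8 gene order, and which gene these ACS serve was not tested. *Prkaa1* was lower in every adult library, at 29.2, 28.5 and 34.6 CPM against 36.6, 37.5 and 36.9 CPM, but was not called (-0.27 ± 0.14, adjusted p = 0.263), except with column sums as library sizes (adjusted p = 0.143). *Rptor* (-0.35 ± 0.20), *Stk11* (-0.18 ± 0.15), *Prkaa2* (0.10 ± 0.14) and *Sesn1* (0.03 ± 0.13) overlapped between the ages and were not called, at adjusted p of 0.312, 0.488, 0.704 and 0.924. Without P10 3, *Rptor* was called Down at an adjusted p of 0.196. The sign of *Sesn1* turned with column sums as library sizes (-0.06), without Adult 6 (-0.07) and without P10 3 (-0.02).

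*Rictor*, *Tsc1* and *Tsc2* are not listed as nearest gene of any ACS, so their accessibility was not analysed here. In the GRCr8 gene order, the neighbours of *Rictor* are *Fyb1* and *Osmr*, which had 11 and 14 ACS, none at a start. Of these 4 were called Up at *Fyb1*, and 2 Up and 1 Down at *Osmr*. The neighbours of *Tsc1*, *Gfi1b* and *Spaca9*, had 2 ACS each. Those of *Tsc2* are *Pkd1*, with 3 ACS including 1 at its start and 1 called Down, and *Nthl1*, with 1 start ACS that was not called. Whether any of these ACS lies at a start of the 3 genes was not determined, since no Rn5 annotation was used here.

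The other genes of the pathway were taken as 4 lists of 68 genes, of which 56 had ACS. Of their 307 ACS, 26 were called Up and 16 Down, or 8.47% and 5.21%, both below the 12.3% and 6.63% of all ACS, with a median log2 fold change of -0.08. The other subunits of mTORC1, mTORC2 and the TSC complex (7 of 8 genes, 36 ACS) had 2 Up and 0 Down calls and a median of -0.01. In the Down direction 2 of these had an unadjusted edgeR p under 0.05, DESeq2 called 0 and limma's voom 1. Both Up calls lay away from starts. The ACS 27.6 kb upstream of *Prr5*, a subunit of mTORC2, rose by 0.93 ± 0.26 on the log2 scale, from 4.59 ± 0.92 CPM at P10 to 8.66 ± 1.28 CPM in adults (SD, n = 3, adjusted p = 0.0231). That of *Tbc1d7*, the third partner of TSC1 and TSC2, at 163 kb, rose by 0.80 ± 0.31 (adjusted p = 0.111), and its call was lost without Adult 4, P10 2 or P10 3, at adjusted p of 0.341, 0.315 and 0.394.

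The genes of amino acid sensing at the lysosome (22 of 28 genes, 131 ACS) had 13 Up and 8 Down calls, or 9.92% and 6.11%, and a median of -0.10. *Fnip2*, a partner of folliculin, had the Up call with the smallest p of this list, at 28.3 kb, with 17.7, 13 and 14.7 CPM in adults and 6.37, 3.85 and 4.33 CPM at P10 (1.63 ± 0.25 on the log2 scale, adjusted p = 7.33e-05). *Rragd*, a Rag GTPase that docks mTORC1 to the lysosome, rose 9.87 kb into the gene by 1.30 ± 0.26 (adjusted p = 0.00134). In the other direction, an ACS 777 bp into *Sesn2*, the leucine sensor related to *Sesn1*, held 2.89, 2.53 and 2.06 CPM in adults and 6.69, 5.49 and 6.29 CPM at P10. It fell by 1.29 on the log2 scale with a standard error of 0.30 (adjusted p = 0.00507), and that of *Lamtor3*, a subunit of the Ragulator anchor, at 27.1 kb fell by 1.01 with a standard error of 0.30 (adjusted p = 0.0324). All 4 of these calls held in each of the 6 fits without 1 library. *Fnip2* had calls in both directions, with a further Up call at 34.9 kb (0.74 ± 0.24, adjusted p = 0.0509) and a Down call at 15.5 kb (-0.62 ± 0.22, adjusted p = 0.0784).

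The other AMPK subunits and partners of its upstream kinases (10 of 11 genes, 39 ACS) had 4 Up and 3 Down calls, or 10.3% and 7.69%, and a median of -0.16. An ACS 79.8 kb from the start of *Prkab2*, a regulatory beta subunit, held 8.31, 8.28 and 6.83 CPM in adults and 2.32, 0.856 and 1.69 CPM at P10. It rose by 2.23 ± 0.32 on the log2 scale (adjusted p = 3.97e-05), the largest log2 fold change among the ACS of the 4 lists. Another ACS of *Prkab2*, 52.6 kb from its start, was called Down (-0.89 ± 0.36, adjusted p = 0.13), with overlap between the ages. *Prkag2*, a gamma subunit, rose 55.4 kb upstream by 0.66 ± 0.23 (adjusted p = 0.0686). *Cab39l*, a scaffold of LKB1, and *Camkk2*, a kinase that activates AMPK on calcium, were called Down at 7.92 and 19.2 kb (-0.96 ± 0.36 and -1.05 ± 0.40, adjusted p = 0.0983 and 0.102), with overlap between the ages at both. Left out in turn, Adult 4 and P10 2 each ended the calls of *Prkag2* (adjusted p of 0.204 and 0.211), *Cab39l* (0.321 and 0.325) and *Camkk2* (0.205 and 0.41). That of *Cab39l* was also lost without P10 3 (0.324), and that of *Camkk2* without Adult 6 (0.35).

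Among the substrates and effectors of mTORC1 and AMPK (17 of 21 genes, 101 ACS) 7 were called Up and 5 Down, or 6.93% and 4.95%, with a median of -0.05. Both Up calls with the smallest p belonged to *Lpin1*, a phosphatidate phosphatase that mTORC1 phosphorylates. The nearer, 4.21 kb upstream, held 85, 66.2 and 86 CPM in adults and 41.7, 37.2 and 34.3 CPM at P10. It rose by 1.07 ± 0.16 on the log2 scale (adjusted p = 5.78e-05), and the ACS 14.5 kb upstream rose by 1.21 ± 0.21 (adjusted p = 0.000315). *Mitf*, which encodes a lysosomal gene regulator, was called Down at 75.3 kb upstream and 119 kb inside (-1.39 ± 0.45 and -1.50 ± 0.49, adjusted p = 0.051 and 0.0541), at no more than 3.71 CPM in any library. Without P10 3 the former and without P10 2 the latter was not called, at adjusted p of 0.211 and 0.457. *Mitf* had calls in both directions, with a further Down call 680.4 kb from its start and an Up call 154 kb inside. The latter rose by 0.71 ± 0.31 (adjusted p = 0.18), from 2.87 to 4.73 CPM on average, and held in 1 of the 6 fits without 1 library.

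**Figure D5:**
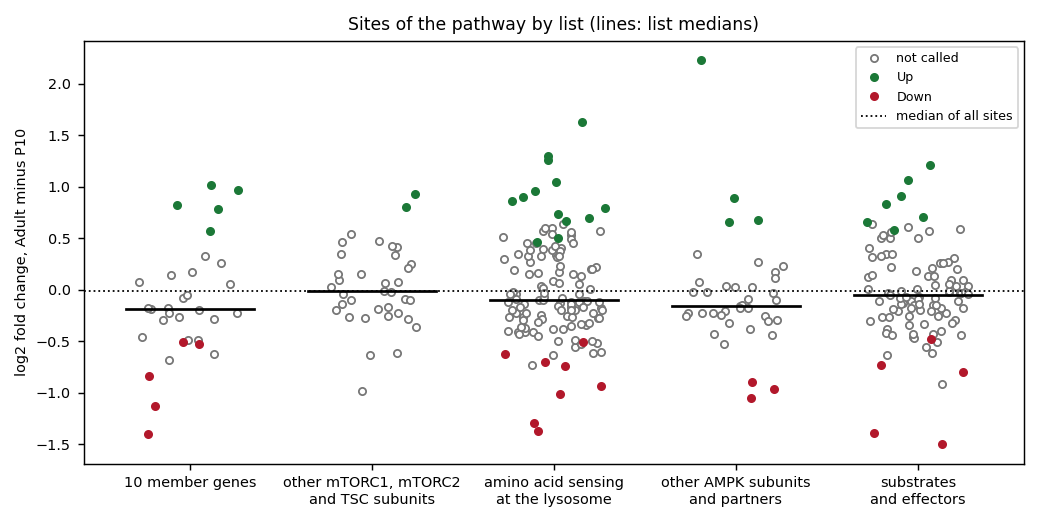
Log2 fold change of Adult over P10 (vertical axis) for each ACS of the 10 genes and of the 4 other pathway lists, with list medians as lines and the median over all ACS, -0.01, dotted. The 32 ACS have the lowest median, at -0.19, and the highest single value belongs to *Prkab2*, at 2.23.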

How the data were processed

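The deposited values are raw counts, the number of Tn5 integrations each library has in each ACS. Per the submitters' processing notes and the methods of the study, the authors checked reads with FastQC 0.11.2, aligned them to Rn5 with BWA 0.7.13, dropped mitochondrial and low-quality alignments with SAMtools 1.3, called peaks with MACS2 2.1.1 on the concatenated libraries of each age, joined both sets and counted integrations with pyDNase. Whether duplicates were removed is not given in the sources used here. The table also holds the authors' own comparison (log fold change, average abundance, F statistic, p-value and FDR), which was not used. Nearest gene, position and class are theirs, with the distance taken from the lower coordinate of an ACS.

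Of 101941 entries 101603 were distinct ACS, and each entered the test 1 time. Counts were tested with edgeR 4.0.16 in R 4.3.3 (TMM, glmQLFit, glmQLFTest, age as the only term, Benjamini-Hochberg over all ACS), and again on sums over the 14776 nearest genes. The standard error is the log2 fold change divided by the square root of F. Tested on simulated data of 101603 ACS with 200 changed by 1 on the log2 scale, the procedure recovered 34%, with medians of 0.95 and -0.97, and called 11 unchanged ACS. On 14776 gene sums it recovered 85.5% and called 43 unchanged genes. Changed ACS and genes were drawn only from those above a low limit on the mean count. The gene sums were simulated at a higher dispersion than the 0.0172 fitted to them. Neither percentage is the recovery in these data, where far larger shares were called. Alternatives were DESeq2 1.42.0, limma 3.58.1 (voom), other library sizes, filters on low counts, a stricter FDR and leaving out each library. The ratio of other ACS to the start ACS was chosen after the values had been seen, and ratios were compared by exact permutation tests over libraries in scipy 1.17.1. Plots used Python 3.11.15 with matplotlib 3.10.9.

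The genes, the lists of other pathway genes and the cell type markers were chosen with earlier results of these data known. Named with all library values were each gene's start or nearest ACS, its called ACS and its uncalled ACS with the largest absolute log2 fold change at a mean of at least 50 counts, and, from each other list, the 2 called ACS of smallest p in each direction. Replicate libraries differed beyond sampling noise, their chi-square divided by its degrees of freedom being 3.35 to 7.81 within an age, so none was counted as a duplicate. Promoter windows and gene order came from RefSeq, GRCr8. Sequences of the ACS themselves were not used here.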

Additional observations from a re-analysis of the deposited data

How the results depend on the processing

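Median-of-ratios factors, the expression filter of edgeR and limma's voom kept every count of calls within 1.5 times of its value. Scaling mattered most. With total reads as library sizes the median over all ACS moved to -0.84, and 0 of the 32 ACS were called Up and 23 Down, with a median of -1.04. By gene sums 0 were Up and 6 Down, and of the other pathway ACS 2 were Up and 207 Down. The sign turned there at *Mtor* 24.4 kb (-0.07) and 71.4 kb (-0.06), *Prkaa2* start (-0.78) and 722 bp (-0.72), *Sesn1* 4.48 kb (-0.54) and 15.9 kb (-0.29), *Tbc1d7* (-0.08) and *Prkag2* (-0.16), and for the sums of *Mtor* (-0.52), *Prkaa2* (-0.73) and *Sesn1* (-0.81). With column sums 3 ACS were Up, gene sums were 0 Up and 2 Down, and 30 other pathway ACS were Down against 16. The *Prkaa2* start (-0.04) and the *Sesn1* sum (-0.06) turned sign. A minimum mean of 50 counts left 3 Up calls and put the *Prkaa2* start at -0.04. DESeq2 left 3 Down calls, and gave no adjusted p for the *Rps6kb1* ACS at 10.7 kb. At an FDR under 0.05 there were 3 Up and 0 Down among the 32 (edgeR, with 5 and 5 at an unadjusted p under 0.05 too), 0 Up and 0 Down among the gene sums (1 and 1 at an unadjusted p under 0.05), and 11 Up and 2 Down among the other pathway ACS.

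Leaving out 1 library gave 1 to 6 Up and 1 to 3 Down calls among the 32, 0 to 1 and 0 to 2 among the gene sums, and 11 to 34 and 6 to 18 among the other pathway ACS. The lowest counts came without Adult 4, P10 2 or P10 3. The start ACS of *Mtor* then ran from -0.20 to 0.05, that of *Prkaa2* from -0.03 to 0.13, the *Prkaa2* ACS at 722 bp from -0.04 to 0.30 and the *Sesn1* sum from -0.07 to 0.14. Of 504 values of the named ACS and gene sums under all alternatives, 407 kept direction and call, 61 lost the call, 16 gained it and 20 turned sign. The causes were not tested. No paired analysis was made, because neither the labels nor the study give any pairing between the adult rats and the pup litters. With 3 libraries per age and 13 of the 32 ACS under a mean of 50 counts, depth limits the weakest ACS most.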
